A study of Mus musculus with 16 samples.

Results

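Reln, the gene of reelin, was followed across 16 RNA-seq libraries of lymphatic endothelial cells sorted from mouse hearts. It is 1 of the 15895 genes listed in the deposited table and was found by its symbol (ENSMUSG00000042453, mm10 chromosome 5, 21884454 to 22344702, minus strand, protein coding). The mice were of the outbred CD1 (ICR) strain, and the labels name no engineered allele. They had a myocardial infarction (MI) or a sham operation either on postnatal day 1 (P1) or as adults on day 56 (P56), and hearts were taken 3 days after surgery. Surgery and age give 4 groups of 4 libraries, named here MI P56, sham P56, MI P1 and sham P1. All cells passed the same sort, which kept cells without CD45, the leukocyte antigen, and with CD31, the endothelial antigen, and podoplanin, which lymphatic endothelium carries. Neonatal ventricles were pooled by 6 and digested in a stirred vessel, while the adult animals were males whose hearts were perfused with enzyme, so in every comparison of ages the age cannot be told apart from pooling, sex and digestion. The labels do not say whether the libraries of a group came from separate animals or pools, so each p-value measures the spread between these libraries, which may be technical.

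Reelin is a large secreted glycoprotein of the extracellular matrix. It binds the lipoprotein receptors Vldlr and Lrp8 on receiving cells, which pass the signal through the adaptor Dab1 and Src family kinases, and integrins that hold the β1 chain are further reported binding partners. It is best known for positioning neurons in the developing brain. In the mouse, lymphatic endothelium also secretes it, and in the heart lymphatic reelin is known to act on cardiomyocyte growth and survival.

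The deposited values are CPM scaled by the authors to an effective library size, so that 1 read has a fixed worth within a library. The libraries held 17103319 to 43837520 reads on listed genes. In 3 libraries, numbers 1 and 2 of sham P1 and number 5 of MI P56, fewer than 10000 genes had a read, and the mitochondrial complex III gene Uqcrc1 took 18.1%, 98.6% and 99.8% of their reads. The main results use the other 13 libraries (2 sham P1, 4 MI P1, 4 sham P56, 3 MI P56), which had a read on 14121 to 15821 genes, and results for all 16 are given beside those of Reln. Library numbers are those of the table's columns, which run 1, 2, 3 and 5. Of the 13, sham P1 library 5 had the highest share of reads on Uqcrc1, 47.3%, with a read on 15549 genes. That share was above the 18.1% of sham P1 library 1, which was left out. The defining lymphatic genes were present in every library of the 13, with Prox1 at 139 to 516, Flt4 at 259 to 752, Lyve1 at 180 to 757 and Mmrn1 at 208 to 863. The libraries also held transcripts that the sort should exclude or deplete, and these are given below beside the results they move with.

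Reln was among the more abundant transcripts of these libraries, which also held RNA of other cells. Its mean over the 13 libraries was 316, or 13.3 per kb of its 23.738 kb of exons, which was 10.3 times the median of 11105 protein-coding genes and above 97.1% of them. Counted per kb of its longest transcript instead, the level was 27.0 per kb and above 98.4% of these genes. By exon length it stood 12th among 24 lymphatic genes, between Itga9 (13.9 per kb), an integrin chain of lymphatic valves, and Thy1 (12.8 per kb). Lyve1, the hyaluronan receptor of lymphatic capillaries, led that order at 171 per kb, followed by the matrix protein gene Mmrn1 at 92.2 and the VEGF-C receptor gene Flt4 at 53.0 per kb. The podoplanin gene Pdpn stood lower, at 9.20 per kb. By longest transcript Reln stood 10th, next to the copper oxidase gene Cp and Thy1. For scale, the 23 lymphatic identity genes listed summed to 3139 to 4747 in sham P56 and 1788 to 3870 in MI P56. A list of 12 fibroblast genes summed to 904 to 4138 and 3812 to 8174 in the same groups.

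In sham P56 libraries 1, 2, 3 and 5, Reln was at 533, 414, 380 and 257. In MI P56 libraries 1, 2 and 3 it was at 262, 187 and 140. The MI libraries were thus low and the sham libraries high, except that the highest MI library lay just above the lowest sham library. In sham P1 libraries 3 and 5, Reln was at 438 and 274. In MI P1 libraries 1, 2, 3 and 5 it was at 277, 218, 272 and 458, a range that contains both neonatal sham values.

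The order of the group means was sham P56 (396 ± 113, SD, n = 4), sham P1 (356 ± 116, n = 2), MI P1 (306 ± 105, n = 4) and MI P56 (196 ± 61.8, n = 3). The ranges of each pair of neighbours in this order overlapped. These values rest on 7567 to 25202 Reln reads per library, so the 95% counting interval (exact Poisson, counting error only) was at most 2.26% either side, far less than the spread between libraries of a group, whose coefficient of variation was 28.7% to 34.2%. In bulk RNA, fewer cells that express Reln and less Reln RNA per cell cannot be told apart.

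The 3 libraries left out gave Reln values of 1695 (sham P1 library 1, 14178 reads), 315 (sham P1 library 2, 78 reads) and 267 (MI P56 library 5, 62 reads). The counting intervals of the last pair were wide, 249 to 393 and 205 to 343. With them, the mean of sham P1 became 681 ± 680 (n = 4) and that of MI P56 214 ± 61.7 (n = 4), so the neonatal sham mean depended on 1 library.

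**Figure D1:**
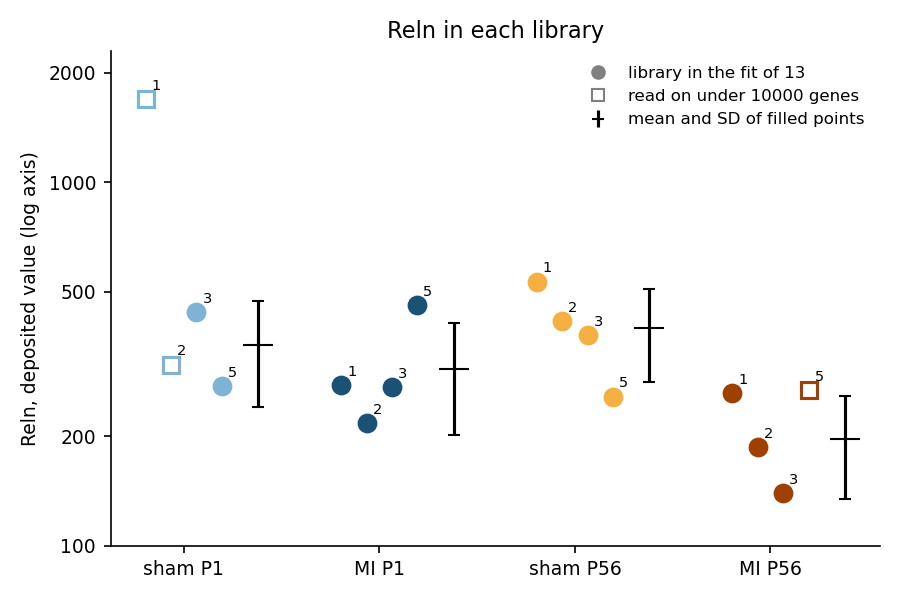
Deposited value of Reln in each library (log axis), by group, with the library number beside each point. Filled circles are the 13 libraries of the main fit, open squares the 3 with a read on under 10000 genes, and black bars the mean and SD of the filled points. The MI P56 libraries lie at 140 to 267 and the sham P56 libraries at 257 to 533.

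At P56, MI and sham hearts were compared to see how adult cardiac lymphatic endothelium responds to infarction. Reln averaged 0.496 of its sham level after adult MI, a log2 difference of -1.01 (SE 0.29, 95% interval -1.62 to -0.40). The difference did not pass the threshold of 0.05 after adjustment over all genes (limma, Benjamini-Hochberg adjusted p = 0.0625, unadjusted p = 0.00267). In this comparison 3.42% of the 13033 genes tested passed, 2.36% higher and 1.07% lower, and 367 genes had a more negative difference than Reln. An exact two-sided permutation test over the 7 libraries gave p = 0.114, where the smallest p this design allows is 0.0571.

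Whether Reln at P56 is called depends on the method and on single libraries. It passed with DESeq2 on the recovered reads (-1.03, adjusted p = 0.0262) and with limma and weights per library (-0.94, adjusted p = 0.0494), but not with edgeR (-1.01, adjusted p = 0.107) or with all 16 libraries (-0.88, limma adjusted p = 0.694, 0.174% of genes called). Leaving out MI P1 library 5, sham P56 library 5 or MI P56 library 1 brought the limma adjusted p to 0.0425, 0.0362 and 0.0488, and leaving out MI P56 library 3 gave -0.79 with 0.308. The sign was negative in all 26 alternatives run.

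A scale that sets aside the mitochondrial ribosomal RNAs and Uqcrc1 gave a similar size. Per 1000000 reads outside mt-Rnr1, mt-Rnr2 and Uqcrc1, Reln was at 1281 to 2373 in the 4 sham P56 libraries and at 666 to 1167 in the 3 MI P56 libraries, which did not overlap. MI P56 library 5, left out of the fit, was at 1499.5 on this scale and lay within the sham range. The log2 difference on this scale was -0.93 (SE 0.29, limma adjusted p = 0.0881).

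At P1, Reln differed by -0.23 on the log2 scale between MI and sham (SE 0.33, 95% interval -0.93 to 0.46, limma adjusted p = 1.00). No gene passed in this comparison (0% of 13033), while 485 had an unadjusted p under 0.05, and DESeq2 called 7 and edgeR 0. With all 16 libraries the difference was -0.77 (SE 0.47, 95% interval -1.74 to 0.19, limma adjusted p = 0.451), in a fit where the median of all genes was 0.39 and 0% were called. Without sham P1 library 3 it was 0.10, so the direction among the 13 rests on that library. The interval from the 13 libraries includes a loss as large as -0.93, just short of the adult difference of -1.01. A neonatal decrease close in size to the adult difference was therefore not excluded by these libraries. Markers of other cells also differed in direction at P1, though none passed. All 18 blood endothelial and all 9 tested mesothelial differences were positive (medians 0.64 and 1.08), and 10 of 12 fibroblast differences were negative (median -0.86). The median over all genes was 0.02. The part of these markers in the neonatal Reln difference was not tested.

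The response to MI differed between the ages by -0.77 (P56 minus P1, SE 0.44, 95% interval -1.70 to 0.15, limma adjusted p = 0.563). That test called 0.483% of genes, and Reln was not one of them. With all 16 libraries the difference of responses was -0.11 (adjusted p = 0.955, 0.00755% of genes called). The data therefore do not show that the Reln response at P56 differs from that at P1.

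Between ages, Reln in sham hearts differed by 0.14 (SE 0.33, 95% interval -0.55 to 0.84, limma adjusted p = 0.832), in a comparison that called 13.2% of genes, 5.89% higher and 7.28% lower. This sign turned without sham P1 library 5 (-0.19), without sham P56 library 1 (-0.01) and with all 16 libraries (-0.39, 3.91% of genes called). After MI, Reln was lower at P56 than at P1 by a log2 difference of -0.63 (SE 0.29, 95% interval -1.24 to -0.02), which did not pass (adjusted p = 0.256, 5.35% of genes called, 2.09% higher and 3.26% lower). It was -0.51 with all 16 libraries (limma adjusted p = 0.980, 0.106% of genes called), -0.41 without MI P56 library 3, -0.42 without MI P1 library 5 and -0.86 without MI P56 library 1. In exact permutation tests of these pairs of groups, p was 0.933 in sham and 0.114 after MI, and 0.800 for MI against sham at P1.

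**Figure D2:**
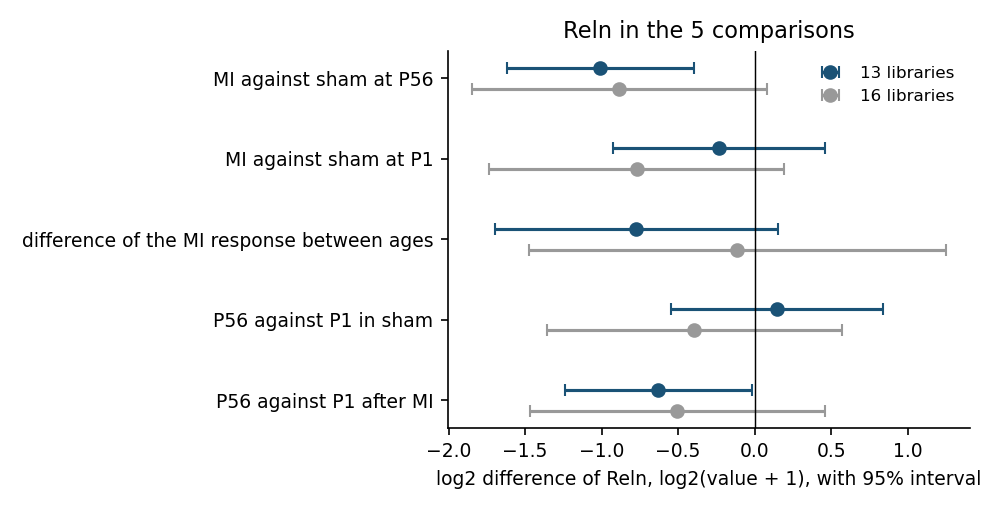
Log2 difference of Reln on the log2(value + 1) scale in the 5 comparisons, with its 95% interval from limma, for 13 libraries (blue) and for all 16 (grey). In the fit of 13, the intervals of MI against sham at P56 (-1.62 to -0.40) and of P56 against P1 after MI (-1.24 to -0.02) lie below 0, before adjustment over genes.

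Reln was then set against the lymphatic transcripts of the same library. The reference was the mean log2(value + 1) of Prox1, the transcription factor that specifies lymphatic identity, Flt4, Lyve1 and Mmrn1. Relative to it, Reln was at -0.15, 0.01, -0.25 and -0.38 in sham P56 libraries 1, 2, 3 and 5, and at -0.89, -0.69 and -0.54 in MI P56 libraries 1, 2 and 3. All 3 MI libraries were below all 4 sham libraries.

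The relative level was -0.19 ± 0.17 in sham P56 (SD, n = 4) and -0.71 ± 0.18 in MI P56 (n = 3), a difference of -0.51. The exact two-sided permutation p was 0.0571, the smallest that 4 against 3 libraries allow, and 0.229 after adjustment over the 4 comparisons of this kind. MI P56 library 5, left out of these values, had a relative level of 0.07 from its 62 reads, and with all 16 libraries the groups overlapped and the difference was -0.32 (exact p = 0.229).

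The result depends on the reference. Against the mean of all 23 tested lymphatic identity genes the P56 difference was -0.48, again without overlap (exact p = 0.0571). Against 14 pan-endothelial genes it was -0.41, with overlap (exact p = 0.343).

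In the neonatal groups the relative level was -0.51 ± 0.09 in sham (n = 2) and -0.44 ± 0.33 in MI (n = 4). They overlapped, with a difference of 0.06 (exact p = 0.800, smallest possible 0.133). This sign turned with all 16 libraries (-0.29), against all 23 lymphatic genes (-0.091) and against pan-endothelial genes (-0.47). Relative to the same 4 genes, Reln in sham was higher at P56 than at P1 by 0.31 without overlap, at the smallest p this design allows (exact p = 0.133). That sign also turned against all 23 lymphatic genes (-0.04, exact p = 0.933), against pan-endothelial genes (-0.41, exact p = 0.400) and with all 16 libraries (-0.04, exact p = 0.971). After MI it was at -0.26, P56 against P1, with overlap (exact p = 0.343). That difference was -0.43 against all 23 lymphatic genes, without overlap and at the smallest p this design allows (exact p = 0.0571, adjusted 0.114), -0.34 with overlap against pan-endothelial genes (exact p = 0.171), and -0.07 with all 16 libraries.

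**Figure D3:**
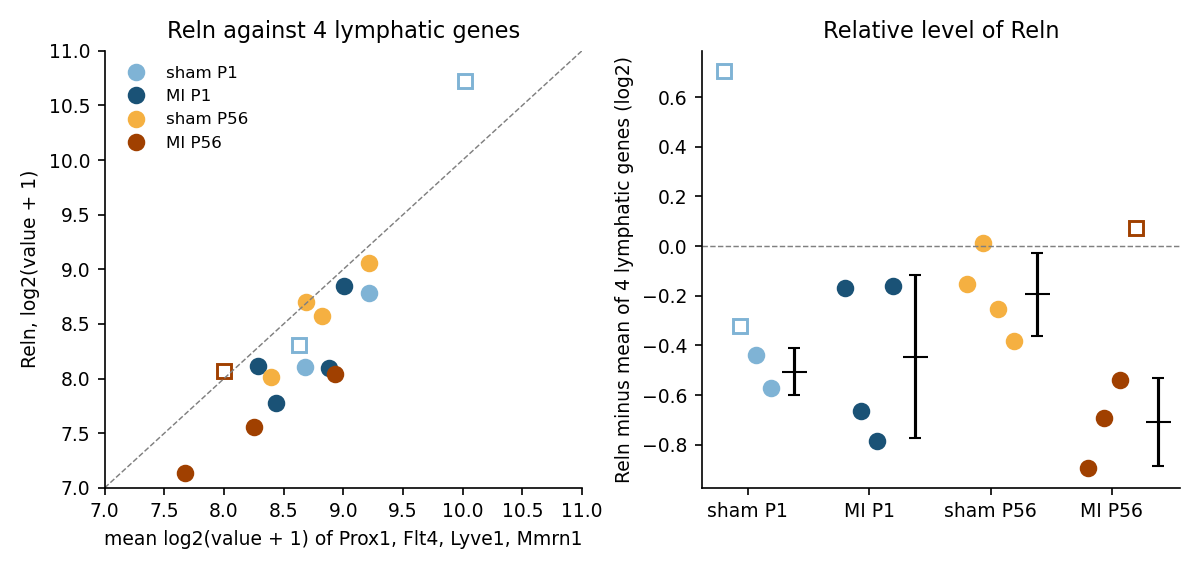
Left, Reln against the mean of Prox1, Flt4, Lyve1 and Mmrn1 in each library, both on the log2(value + 1) scale, with a dashed line where the values are equal. Right, their difference by group, with the mean and SD of the 13 libraries in black and the 3 libraries left out as open squares. The MI P56 libraries of the fit lie at -0.89 to -0.54, below the sham P56 libraries at -0.38 to 0.01.

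Within groups, libraries with more Reln had more of most lymphatic transcripts. With each group's mean removed, the Pearson r over 13 libraries was above 0 for 21 of 23 lymphatic identity genes (91.3%, against 53.6% of the 6090 genes compared), and its median was 0.60 against 0.04. Of the 23, 7 passed an adjusted p of 0.05 by exact permutation of libraries within groups, with adjustment over the 23 correlations computed. These were Klhl4 (r = 0.93, rho = 0.88), a kelch protein gene, Fgl2 (r = 0.92, rho = 0.92), the VEGF-C co-receptor gene Nrp2 (r = 0.91, rho = 0.83), Mmrn1 (r = 0.89, rho = 0.88), Prox1 (r = 0.86, rho = 0.85), Itga9 (r = 0.83, rho = 0.85) and Nr2f2 (r = 0.78, rho = 0.78), whose product is a partner of Prox1.

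Their exact p ran from 0.000434 for Nrp2 to 0.00781 for Nr2f2, and their adjusted p from 0.00666 to 0.0257. Without the 2 libraries farthest from the median, r stayed between 0.65 (Nr2f2) and 0.93 (Fgl2) for these 7. For Lyve1 (r = 0.68, rho = 0.66, exact p = 0.0255, adjusted p = 0.0651) and Flt4 (r = 0.48, rho = 0.59, exact p = 0.153, adjusted p = 0.235) the correlation did not pass. The transcription factor gene Sox18 had the lowest r (-0.40, rho = -0.36, exact p = 0.264, adjusted p = 0.319).

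Of the lists of other cell types, some had a positive and some a negative median r. All 12 fibroblast genes and all 9 pericyte and smooth muscle genes had a negative r with Reln, with medians of -0.62 and -0.72, and Notch3, the Notch receptor of mural cells, was at -0.93. Blood endothelial genes had a median of -0.18, cardiomyocyte genes -0.08 and macrophage and monocyte genes 0.00, while the 14 pan-endothelial genes had a median of 0.19 (64.3% above 0) and the 9 mesothelial genes of 0.21 (88.9% above 0). The one macrophage list gene with a high r was the mannose receptor gene Mrc1 (0.92), which lymphatic endothelium also expresses, while the leukocyte gene Ptprc was at -0.29. Of the 11 Schwann and neural genes, 3 were listed and their sum was 0.712 to 4.35 per library.

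Among technical measures, r with Reln was 0.56 for the share of mitochondrial ribosomal RNA and -0.37 for that of Uqcrc1. It was -0.27 for all reads on listed genes, -0.04 for the reads outside that RNA and Uqcrc1, and -0.14 for the number of genes with a read. All these values come from the same libraries and are descriptions. The part of mitochondrial RNA, of Uqcrc1 and of other cell types in them was not tested.

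The 8 genes most like Reln, by r over the 13 libraries with group means removed and among genes with a mean of at least 5, were Dock4 (0.95), Son (0.94), Jmy (0.94), Sp4 (0.94), Dennd4a (0.94), Klhl4 (0.93), Skap2 (0.93) and Fgl2 (0.92). Dock4 encodes a Rac activator, Son a splicing cofactor, Jmy an actin nucleation factor and Sp4 a GC-box transcription factor. None of the 8 passed in MI against sham at P56, where 3.42% of all genes did. Their log2 differences there were between -0.68 (Fgl2) and -0.22 (Dennd4a). Their median exon length was 10.1 kb against 6.10 kb over the genes compared, with Klhl4 (3.58 kb) and Fgl2 (3.79 kb) below the latter. Over 6089 genes exon length and r had a Spearman rho of 0.14.

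**Figure D4:**
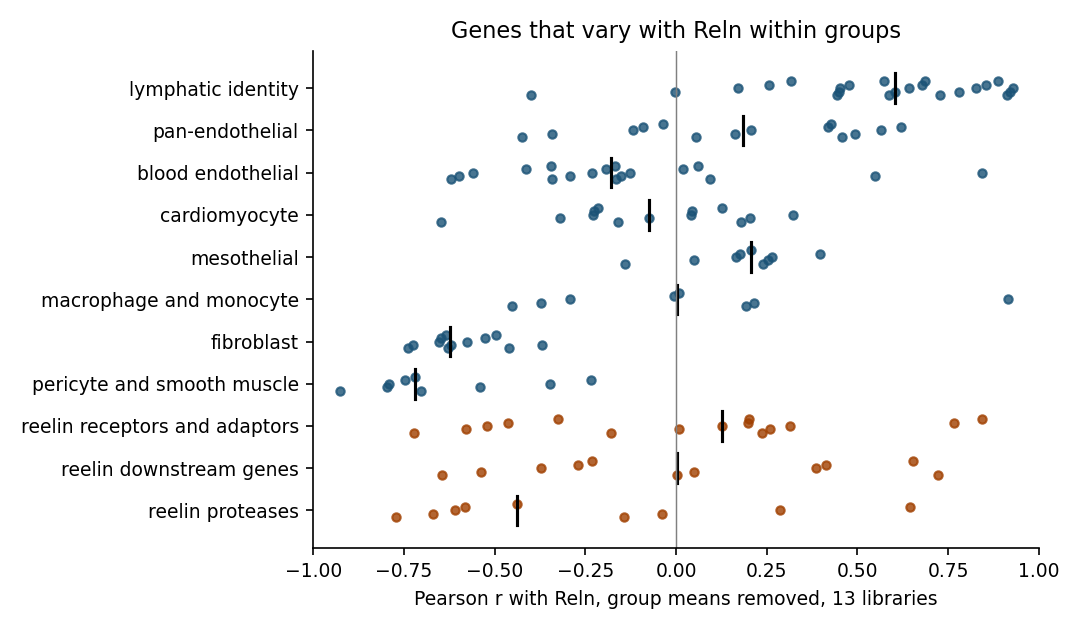
Pearson r with Reln for each tested gene of 11 lists, on log2(value + 1) with group means removed over 13 libraries. Each point is a gene and black lines are list medians, which are 0.60 for lymphatic identity genes, -0.62 for fibroblast genes and -0.72 for pericyte and smooth muscle genes.

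At P56 the lymphatic identity list as a whole lay below sham after MI, with 22 of 23 differences negative and a median of -0.46 against 0.01 over all genes. Of the 23, 1 passed, in a comparison where 1.07% of all genes were lower. This was the transcription factor gene Gata2, which fell by 1.38 (SE 0.37, limma adjusted p = 0.0473), and this call was lost in 11 of the 13 fits without 1 library and with all 16. Gata2 was at 9.21, 23.6, 6.57 and 7.71 in sham P56 libraries 1, 2, 3 and 5 and at 3.10, 3.47 and 3.52 in MI P56 libraries 1, 2 and 3. Mmrn1 was closest to Reln in size among the 4 reference genes, at 675 ± 185 in sham and 378 ± 189 in MI (log2 difference -0.92, SE 0.32, adjusted p = 0.133). Prox1 was at 259 ± 70.7 and 189 ± 64.9 (-0.46, adjusted p = 0.471), and Lyve1 at 460 ± 125 and 423 ± 237 (-0.27, adjusted p = 0.747). Flt4 was at 752, 259, 673 and 481 in sham P56 libraries 1, 2, 3 and 5. In MI P56 libraries 1, 2 and 3 it was at 571, 403 and 277, within the sham range.

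Markers of other cells differed between the same groups, in a comparison where 2.36% of all genes were higher and 1.07% lower. The 12 fibroblast genes summed to 904 to 4138 in sham P56 and 3812 to 8174 in MI P56, and 5 of the 12 rose, among them Col1a1 by 3.38 and Postn by 3.26 on the log2 scale. The 13 cardiomyocyte genes listed summed to 1466 to 2540 in sham and 422 to 692 in MI, and 12 fell. The 9 pericyte and smooth muscle genes listed summed to 453 to 1171 in sham and 217 to 353 in MI, with 1 higher (Acta2) and 2 lower (Rgs5 and Abcc9). The 14 pan-endothelial genes summed to 757 to 946 in sham and 408 to 701 in MI, and 4 fell. The 18 blood endothelial genes summed to 737 to 1197 in sham and 307 to 596 in MI, with 17 of 18 differences negative and 4 lower (Kdr, Cd36, Fabp4 and Aqp1). The 10 macrophage and monocyte genes listed summed to 74.6 to 131 in sham and 70.4 to 147 in MI, and of the 8 tested Cd68, Itgam and Ccr2 rose and Mrc1 fell. The 10 mesothelial genes summed to 74.8 to 427 in sham and 43.7 to 100 in MI, with 8 of 9 tested differences negative and none passing. No listed member of these lists was at 0 in every library. Their part in the Reln difference was not tested.

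Receptors came next among the reelin pathway genes. Of the 16 receptor and adaptor genes on the list, 15 were tested. None passed in MI against sham at P56 (median 0.01), at P1 or in the difference of the responses. Of all genes, 3.42%, 0% and 0.483% passed in these comparisons. Vldlr, the receptor shared with lipoproteins, was at 12.6, 16.9, 13.2 and 8.10 in sham P56 libraries 1, 2, 3 and 5 and at 4.60, 11.9 and 12.0 in MI P56 libraries 1, 2 and 3, a log2 difference of -0.44 (SE 0.36, limma adjusted p = 0.580). Lrp8, the other lipoprotein receptor, was at 1.70 ± 0.690 and 1.95 ± 0.748 (0.13, SE 0.37, adjusted p = 0.891). Per kb of exons the mean levels of these receptors were 1.19 and 0.165, against 39.5 for the integrin β1 gene Itgb1, which was at 143 ± 1.88 in sham P56 and 153 ± 17.1 in MI P56 (0.10, SE 0.19, adjusted p = 0.839). Dab1 was not analysed here.

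Of the kinases, Fyn, which phosphorylates Dab1, had the largest negative difference of the list at P56, from 26.2 ± 3.71 to 14.8 ± 3.34 (-0.79, SE 0.24, limma adjusted p = 0.0799), with all 3 MI libraries below all 4 sham libraries. Src was at 0.359 ± 0.290 and 1.62 ± 1.20 (0.87, SE 0.33, adjusted p = 0.170). With age in sham hearts, 2 of the 15 passed, a share near the 13.2% of all genes that did. Nrp1, the VEGF and semaphorin co-receptor gene, rose by 1.67 (SE 0.35, adjusted p = 0.00304), from 13.4 at P1 to 45.5 at P56, and Src fell by 1.19 (adjusted p = 0.0441). Leaving out sham P1 library 3 ended the call of Nrp1 (adjusted p = 0.0902), as did using all 16 libraries. The call of Src was lost in 9 of the 13 fits without 1 library and in 7 of 12 other settings. These settings included edgeR, DESeq2 and all 16 libraries (-0.43, limma adjusted p = 0.576). After MI none of the 15 passed with age, where 5.35% of all genes did.

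Of 11 tested downstream kinase and cytoskeleton genes, none passed in MI against sham at either age. Of all genes, 3.42% passed at P56 and 0% at P1. Cfl1, the actin-severing protein gene whose product Limk1 phosphorylates, was at 30.0 ± 4.14 in sham P56 and 49.1 ± 4.81 in MI P56 (0.70, SE 0.21, limma adjusted p = 0.0698). Gsk3b, the kinase gene downstream of Akt, was at 99.1 ± 14.9 and 108 ± 12.7 (0.13, SE 0.19, adjusted p = 0.767). With age in sham, 1 of the 11 passed, against 13.2% of all genes. This was Cfl1, which fell by 1.09 (SE 0.24, adjusted p = 0.00400), a call that ended when sham P1 library 5 was left out (adjusted p = 0.0814) and with all 16 libraries.

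The proteases that cleave reelin form the remaining list, and their members had a median log2 difference of 0.82 at P56 against 0.01 over all genes. Of the 9 tested, 1 rose, against 2.36% of all genes. This was Adamts2, a procollagen N-proteinase gene whose product also cuts reelin. Adamts2 was at 4.46, 21.7, 22.7 and 20.0 in sham P56 libraries 1, 2, 3 and 5 and at 37.7, 46.1 and 79.9 in MI P56 libraries 1, 2 and 3. All MI libraries were above all sham libraries, and the log2 difference was 1.74 (SE 0.43, limma adjusted p = 0.0304). The call was lost without MI P56 library 2 or 3 (highest adjusted p = 0.196), with edgeR, with only the groups compared and with all 16 libraries (1.60, adjusted p = 0.345).

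Adamts3, the main reelin-cutting protease of mouse brain, was at 0.627 ± 0.469 and 2.78 ± 1.58 (1.18, SE 0.33, adjusted p = 0.0527 in limma), Adamts14 at 0.982 ± 0.757 and 5.12 ± 3.04 (1.58, adjusted p = 0.0671) and the procollagen C-proteinase gene Bmp1 at 9.99 ± 2.53 and 18.4 ± 4.59 (0.82, adjusted p = 0.114). Within groups, Adamts2 had an r with Reln of -0.77, Adamts14 of -0.67, Bmp1 of -0.61, Pcsk5 of -0.58 and Furin of -0.44. Adamts3 and Adamts5 were at -0.14 and -0.04, and Plat and Adamts4 at 0.29 and 0.65. The fibroblast sums of the same libraries are given above, and their part in the Adamts2 value was not tested.

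With age in sham hearts, 3 of the 9 proteases passed and all 3 fell, where 13.2% of all genes passed and 7.28% were lower. Adamts4, an aggrecanase that cuts reelin, was at 68.2 and 50.9 in sham P1 libraries 3 and 5 and at 19.0, 8.90, 12.5 and 5.63 in sham P56 libraries 1, 2, 3 and 5. It fell by 2.38 (SE 0.43, limma adjusted p = 0.000929), a call that held under all 26 alternatives run. Plat, the gene of tissue plasminogen activator, fell by 1.45 (adjusted p = 0.00408) and Adamts14 by 1.90 (adjusted p = 0.0218). The call of Plat was lost without sham P1 library 3, that of Adamts14 without either sham P1 library, and both were lost with all 16. After MI, 2 of the 9 passed with age, both lower at P56, where 5.35% of all genes passed and 3.26% were lower. These were again Adamts4 (-1.55, limma adjusted p = 0.0201) and Plat (-1.01, adjusted p = 0.0370). With all 16 libraries, where 0.106% of genes were called, neither passed. Of the 13 fits without 1 library, Adamts4 after MI was lost in 4 and Plat in 6, each time without an MI library. Markers of other cells moved with age in sham as well, where 5.89% of all genes were higher and 7.28% lower. The fibroblast genes summed to 3241 to 6731 at P1 and 904 to 4138 at P56 (1 of 12 higher, 4 lower), the cardiomyocyte genes to 226 to 292 and 1466 to 2540 (13 of 13 higher), and the blood endothelial genes to 235 to 311 and 737 to 1197 (10 of 18 higher). In the comparison of ages after MI, 11 of 12 fibroblast differences were positive and all 9 tested mesothelial differences were negative. Of the 14 pan-endothelial differences 12 were negative, and of the 18 blood endothelial differences 9 were positive and 9 negative. The part of these markers in the results on age was not tested.

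**Figure D5:**
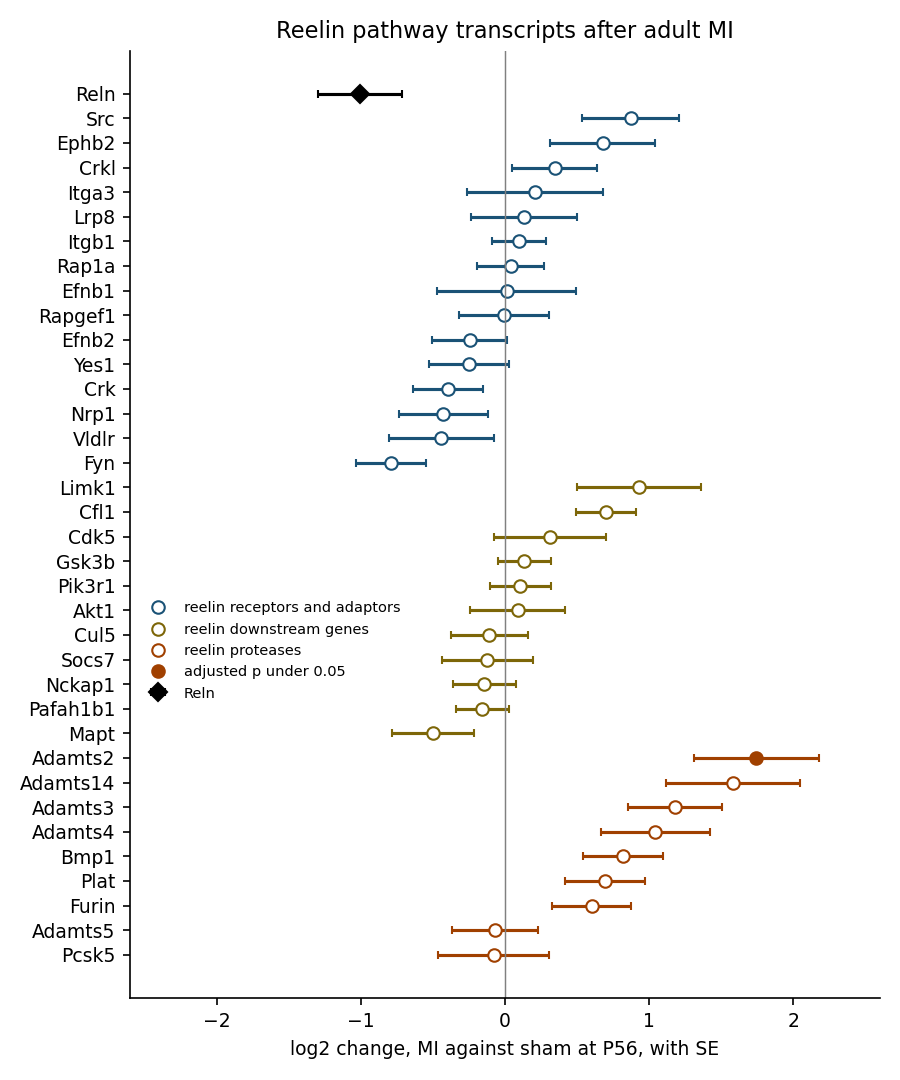
Log2 difference between MI and sham at P56 with its SE (limma, 13 libraries) for Reln and the tested reelin pathway genes, in 3 lists. Filled points passed an adjusted p of 0.05. Adamts2, at 1.74, is the one filled point, Reln lies at -1.01, and Vldlr and Lrp8 lie at -0.44 and 0.13.

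Lymphatic genes that changed with age did so while Reln did not pass. In sham hearts 7 of the 23 rose (Timp3, Cp, Itga9, Maf, Nr2f2, Sox18 and Ackr2) and 2 fell (Klhl4 and Clca3a1), where 5.89% of all genes were higher and 7.28% lower. The sums of other cells' markers that moved in the same comparison are given above with the proteases. Itga9 rose by 1.04 (limma adjusted p = 0.00274) and Klhl4 fell by 1.53 (adjusted p = 0.0132), although both had an r over 0.8 with Reln within groups. Each of the 9 calls was lost with all 16 libraries and when 1 or the other sham P1 library was left out, and that of Clca3a1 also without sham P56 library 3 or 5.

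The Reln locus spans 460249 bases, and 4 other listed genes lie inside it. Gm10475 and Gm16110 are annotated as antisense on the plus strand, and Dnaja1-ps and Gm19666 lie on the same strand as Reln. Their mean values were 1.41 to 4.37, against 316 for Reln. Strand use in counting is not given in the sources used here, so reads of the antisense genes and of Reln cannot be told apart, and within groups Gm16110 had an r of 0.90 with Reln. The nearest protein-coding genes outside, Slc26a5 and Orc5, were at 0.753 and 2.75 and did not pass at P56 (limma adjusted p = 0.395 and 0.625).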

How the data were processed

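The 16 libraries were made with the Ovation RNA-Seq System V2 and read as 80 bp single ends, per the labels' protocols. Trimmomatic, STAR, HTSeq and edgeR with mm10 (GRCm38) are named in the submitters' processing notes. The authors deposited 1 value per gene and library, a signal named CPM, that is reads scaled to an effective (TMM) library size. All values came out as whole reads times 1 constant per library within 0.01 read, so 100% of values were recovered as reads. A value of 1 in at least 4 libraries was required, which left 13033 genes with 13 libraries (13243 with 16).

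The main test was limma-trend 3.58.1 in R 4.3.3 on log2(value + 1), with the 4 groups in 1 fit and Benjamini-Hochberg adjustment over all genes tested, two-sided, threshold 0.05. Changes on this scale understate those of low genes. The libraries in the main fit had a read on at least 10000 genes. Their reads outside mt-Rnr1, mt-Rnr2 and Uqcrc1 numbered 6709566 to 12918569. Alternatives on the recovered reads were edgeR 4.0.16 and DESeq2 1.42.0. Others were other filters, pseudocounts of 0.25 and 4, other scalings, weights per library, a replicate block and each library left out. Single values were tested by exact permutation over libraries, with a function checked against scipy 1.17.1 on simulated data. The limma fit was tested on simulated data with known changes.

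Reln, the lists and the rule on libraries were chosen with earlier results of these data known. Named genes are Reln, list members named for role or call, and the 8 genes most like Reln. Ccl21a, Dab1, Cdk5r2, Mep1a and Mep1b were not analysed here, and Cdk5r1 was under the filter. The column numbered 5 of each group was matched to the group only, since the labels number 1 to 4. Exon lengths are from GENCODE M21. Which sequencing pool held which library is not given in the sources used here.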

Additional observations from a re-analysis of the deposited data

Results flagged for a closer look

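Within groups of 4 libraries, 82 sets of values of Reln and of the reelin pathway genes were searched for a library far from the other 3, and 6 were found, where chance gives about 1 in 20. In the neonatal sham group, library 1 had Reln at 1695 and the other 3 had it at 274 to 438, and library 1 is a library with a read on 9451 genes. In sham P56, Nrp1 was at 71.6 in library 5, Akt1 at 13.9 and Cul5 at 43.0 in library 2, and Adamts2 was low at 4.46 in library 1. In MI P1, Pcsk5 was at 2.76 in library 5, far below the other 3. No difference of the MI response between ages passed for Reln or for a gene of the 3 pathway lists, where 0.483% of all genes passed.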

How the results depend on the processing

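Reln in MI against sham at P56 stayed between -1.24 and -0.79 when 1 library was left out and between -1.05 and -0.88 under the other alternatives. It passed with weights per library (-0.94), with DESeq2 (-1.03) and without MI P1 library 5 (-1.01), sham P56 library 5 (-1.20) or MI P56 library 1 (-1.24). Reln at P1 ran from -0.57 to 0.10, after MI with age from -0.86 to -0.41, and in age in sham from -0.19 to 0.48 without 1 library, and with 16 libraries these were -0.77, -0.51 and -0.39. Exact permutation gave these same sign changes (0.10, -0.19, -0.01 and -0.39). The relative level of Reln at P1 turned negative with all 16 libraries (-0.29), the whole lymphatic list (-0.091) or pan-endothelial genes (-0.47) as reference, and without sham P1 library 5, MI P1 library 1 or MI P1 library 5 (lowest -0.034, highest over all 0.17). In age in sham it turned to -0.038, -0.045 and -0.41 under the first 3 of these. The causes were not tested.

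Calls over all genes moved most. With 16 libraries they were 23 for MI at P56, 1 for the difference of responses, 518 for age in sham and 14 for age after MI, against 446, 63, 1716 and 697. With only the groups compared they were 199, 1023 and 1215 for MI at P56, age in sham and age after MI, with weights 768, 317, 2766 and 1365, and with DESeq2 866 and 324 for MI at P56 and the difference of responses. A pseudocount of 4 gave 34 for the latter. For MI at P1, where the main count was 0, they were 1 with a value of at least 5, 2 with a pseudocount of 0.25, 1 outside the 3 RNAs, 2 with quantile normalization, 7 with only the groups compared, 8 with weights and 7 with DESeq2. Without 1 library the counts ran from 143 to 645 (MI at P56), 0 to 2 (MI at P1), 1 to 228 (difference of responses), 644 to 2270 (age in sham) and 317 to 1344 (age after MI).

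Same-numbered libraries did not deviate together (1 of 15 pairs over an r of 0.1, median -0.05). With group means removed, the 2 sham P1 libraries mirror each other, so this check cannot exclude a pairing. With the replicate block, Reln at P56 was -1.05 (limma adjusted p = 0.0859) and the difference of responses had 8 calls. With 16 libraries the median of all genes moved to -0.17 at P56 and 0.39 at P1, so differences in that fit are read against it. Depth did not limit Reln in the 13 libraries, whereas 78 and 62 reads limit it in the pair of libraries most filled by Uqcrc1.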
